A study of Mus musculus with 24 samples.

Results

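Wild-type (WT) mouse liver was compared across all genes between 2 ages of the first week after birth, P2.5 and P7.5 (2.5 and 7.5 days after birth). The arrays were taken by their titles, 4 at each age, so that 8 of the 24 arrays of the series entered the comparison. Of 20144 genes with a symbol, 16403 were bright enough to be tested. The study set livers of WT mice beside livers of glucagon receptor knockout (GCGR KO) mice at P2.5, at P7.5 and, late in gestation, at E18.5, with 4 arrays for each genotype and age. Every array was read in 2 colours, with the liver in Cy5 and a pooled mouse reference RNA in Cy3, and each value given here is the log2 ratio of liver over reference for 1 gene. The WT mice are described only by genotype, tissue and age, and neither strain, sex nor feeding state is given in the sources used here. It is also not said whether the 4 libraries of an age came from separate animals. For the comparison of ages, p-values and standard errors measure the spread between libraries, pooled over the 12 WT arrays of all 3 ages. This spread may be technical.

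The liver of a newborn mouse is still a blood-forming organ, and over the first weeks of life blood formation passes to the bone marrow and spleen. Hepatocytes, the main cells of the liver, at the same time take up adult work: they secrete plasma proteins, detoxify drugs and waste, break down amino acids and make bile. Before weaning they do this on milk, which is rich in fat and poor in carbohydrate, so that oxidation of fatty acids and glucose synthesis under glucagon carry much of the energy supply.

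Between P2.5 and P7.5, many genes of acute phase proteins, antigen presentation, T cells, drug conjugation and amino acid breakdown rose, while genes of red cell precursors, platelet precursors and cell division fell. At an adjusted p under 0.05, limma called 5661 of 16403 genes, a share of 34.5%, with 3200 genes higher at P7.5 (19.5%) and 2461 lower (15%). The change was at least 2-fold in 598 of them (3.65%), 300 higher and 298 lower, and at least 4-fold in 51 rises and 24 falls. The values of the 2 ages did not overlap in 36.9% of the genes tested. The median change over all genes tested was 0.04 on the log2 scale. Because about 1 gene in 3 passed, the count of each gene group is read against these shares.

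**Figure D1:**
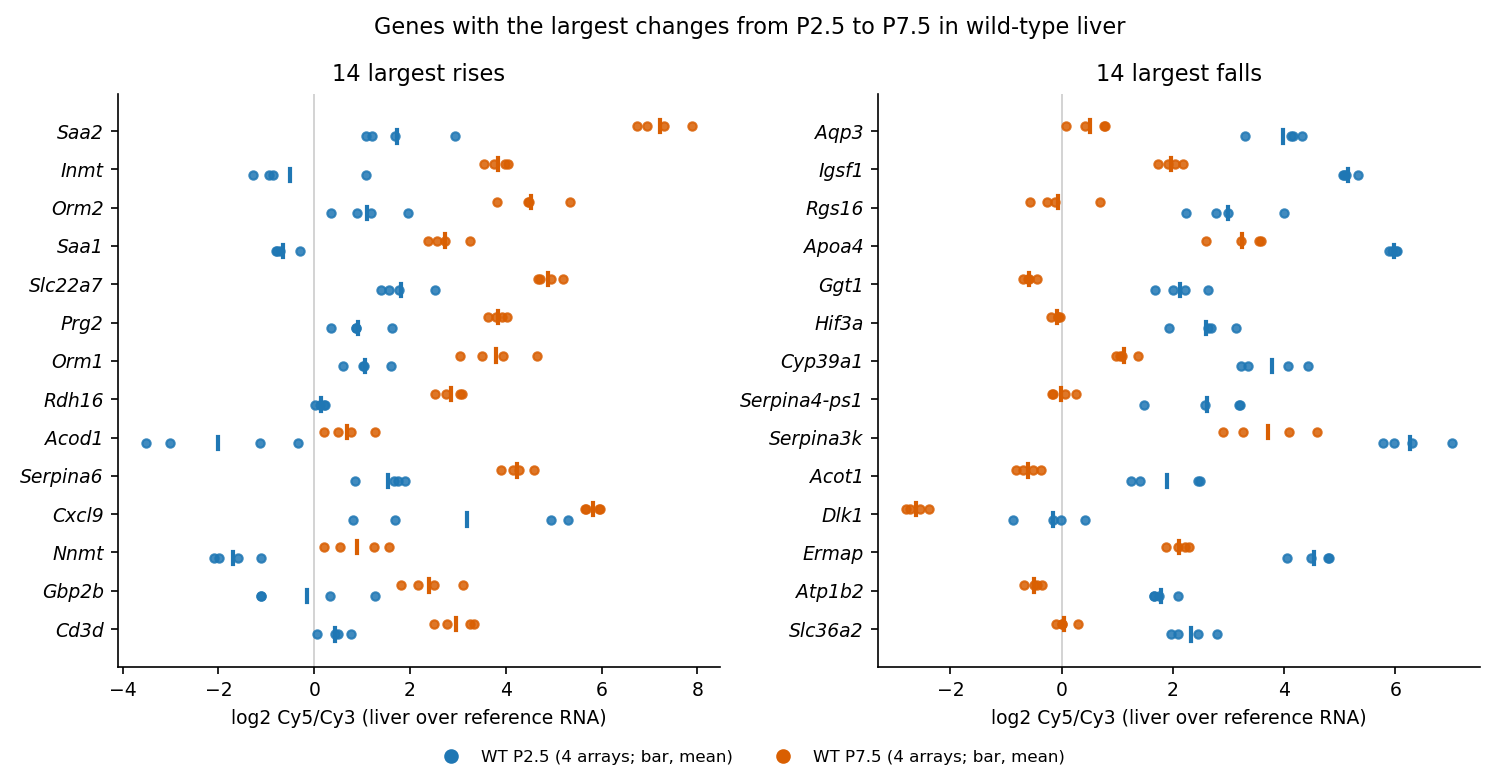
Log2 Cy5/Cy3 (x axis) of the 14 largest rises and the 14 largest falls from P2.5 to P7.5 in WT liver among the genes reported here. Each point is 1 of 4 arrays per age, blue for P2.5 and orange for P7.5, and each short bar is a group mean. Within every gene shown the 2 ages do not overlap, which was a condition of selection. The genes run from Saa2 with the largest rise (5.50) to Aqp3 with the largest fall (-3.46).

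Both ages shared 3 slides, with 1 array of each age on every one, which allowed the change to be read within a slide. Of the 5661 genes, 5624, 5648 and 5568 changed in the same direction within the 3 slides, 5518 did so in all of them, and 4846 also passed with the slide fitted as a block. Since the arrays on these slides also gave the calls, this agreement was largely set by the selection. The P7.5 libraries were close to one another (Pearson correlation across genes 0.991 to 0.992) and the P2.5 libraries were more spread out (0.942 to 0.983). P2.5 replicate 3 stood farthest from the P7.5 libraries (0.912 to 0.918) and P2.5 replicate 4 nearest (0.951 to 0.954). All 10 defining hepatocyte markers were high at both ages, with gene means from 4.37 to 7.25 at P2.5 and from 4.56 to 7.48 at P7.5. The Y-linked gene Ddx3y was low in P2.5 replicate 1 (-3.08) and in P7.5 replicates 3 and 4 (-2.40 and -2.41), against 1.46 to 1.57 in the other P2.5 libraries and 1.32 and 1.04 in the other P7.5 libraries; its part in the age differences was not tested. Gcgr, the glucagon receptor itself, read 5.51, 5.75, 6.26 and 5.74 at P2.5, then 5.50, 5.61, 5.65 and 5.65 at P7.5. The groups overlapped, and the difference of -0.21 ± 0.18 (SE, n = 4 and 4) did not pass (limma adjusted p = 0.384), but with Cy5 alone it was -0.39 and passed (limma adjusted p = 0.0415).

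**Figure D2:**
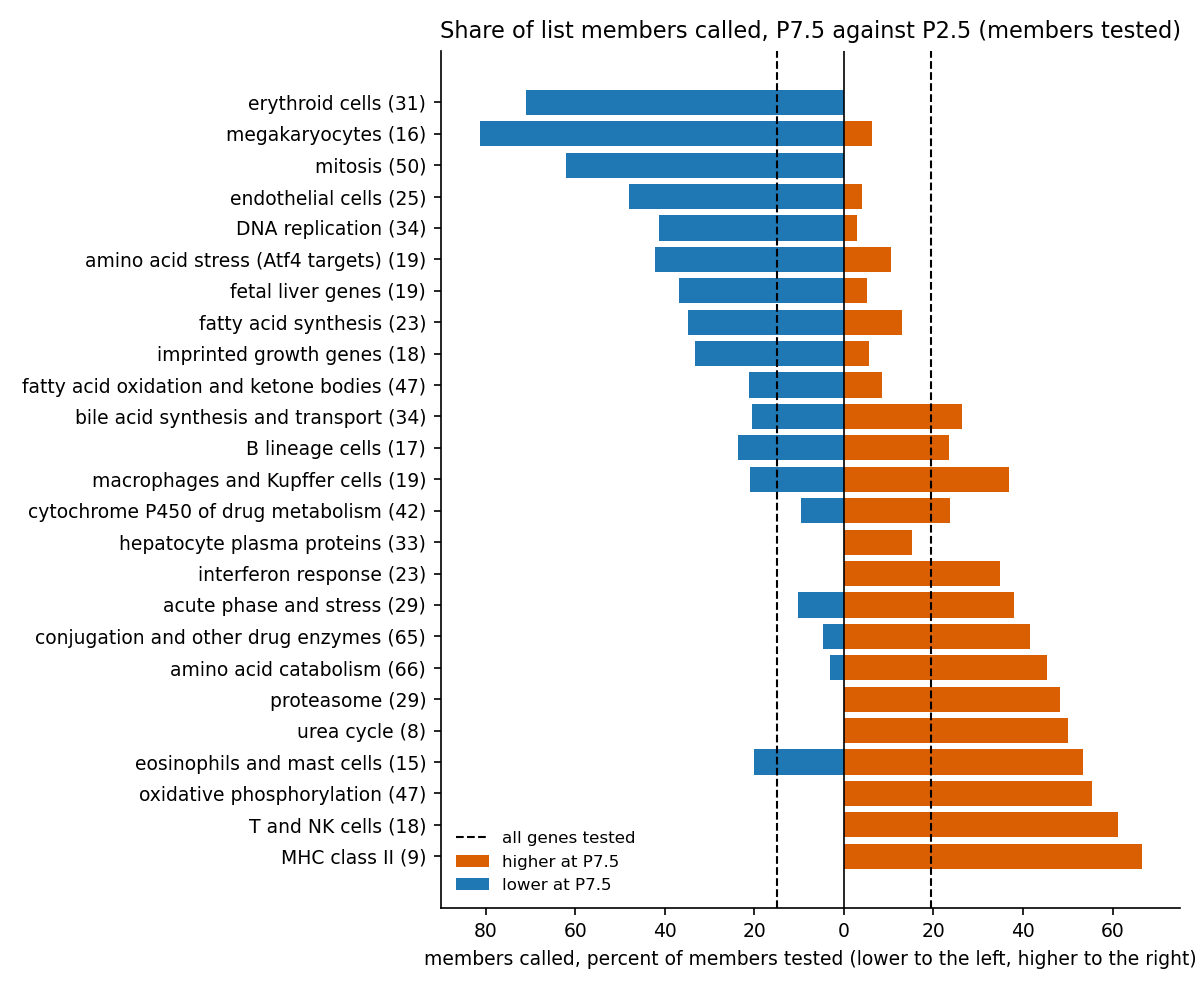
Share of the members tested (x axis, percent) that passed as lower (blue, to the left) or higher (orange, to the right) at P7.5 than at P2.5, for 25 gene lists with the number of members tested in brackets. Dashed lines give the shares over all 16403 genes, 15% lower and 19.5% higher; erythroid, megakaryocyte and mitosis genes reach farthest left, and MHC class II and T and NK cell genes farthest right.

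Acute phase proteins, which the liver releases into plasma during inflammation, held the largest rise among the genes reported here. Saa2, a serum amyloid A protein carried on high-density lipoprotein, read 1.21, 1.68, 1.07 and 2.93 at P2.5 (replicates 1 to 4, as in all such series below) and 6.73, 7.30, 6.96 and 7.90 at P7.5. All P7.5 libraries were above all P2.5 libraries, and the rise of 5.50 ± 0.35 on the log2 scale (SE, n = 4 and 4) was 45.2-fold (limma adjusted p = 9.14e-07). Its neighbour Saa1 read -0.79, -0.80, -0.72 and -0.29 and then 2.37, 2.74, 2.56 and 3.26, a rise of 3.38 ± 0.17 (limma adjusted p = 2.39e-07). In P2.5 replicate 4 both genes were higher than in the other P2.5 libraries. Saa3, the form made mainly outside hepatocytes, rose by 2.13 ± 0.19.

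The orosomucoids, plasma carriers of drugs and acute phase reactants, moved with them. Orm2 was 0.90, 0.34, 1.18 and 1.95 at P2.5, as against 3.82, 4.49, 4.47 and 5.35 at P7.5, a rise of 3.44 ± 0.33 (10.8-fold, limma adjusted p = 2.08e-05). Orm1 rose by 2.73 ± 0.29 and Orm3 by 2.41 ± 0.19, the latter with 1 of 4 P2.5 arrays well above background and a change of 5.11 in the scanner software's log ratio. Within P7.5, replicate 4 was highest and replicate 1 lowest for Orm1, Orm2 and Orm3. The Saa and Orm genes are each a family of near-identical copies, so that a probe of one may also read another.

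Of 29 acute phase and stress genes tested, 11 were higher and 3 lower at P7.5, with a median change of 0.34. Those that fell were receptors and an inhibitor: Il1r1, a receptor of interleukin 1, fell by 0.73 ± 0.15, Il6ra, the receptor subunit for interleukin 6, by 0.68 ± 0.21, and Serpina3k, a protease inhibitor of plasma, by 2.56 ± 0.34. Serpina3k read 5.97, 6.30, 7.03 and 5.78 and then 2.90, 4.09, 3.27 and 4.60, but in the scanner software's own log ratio its change was 0.88, in the opposite direction. Il6ra was set apart by P2.5 replicate 3 (1.53, 1.52, 2.52 and 1.56 at P2.5 against 1.19, 1.06, 1.07 and 1.09 at P7.5), and its call was lost with the slide as a fixed block (limma adjusted p = 0.062), in the scanner software's log ratio (0.0587) and without P7.5 replicate 2 (0.0536), 3 (0.0521) or 4 (0.0501). Without P2.5 replicate 3 its change was -0.43.

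Other proteins that hepatocytes secrete had smaller counts. Of 33 hepatocyte plasma protein genes 5 were higher and none lower (median 0.22), where all genes tested had 19.5% higher; without P2.5 replicate 3 the count was 20 higher. Hpx, which carries free heme, rose from 7.14, 7.51, 7.66 and 7.51 to 8.12, 8.06, 8.21 and 8.60. Serpina6, the corticosteroid-binding globulin of plasma, was 1.90, 1.74, 0.85 and 1.67 at P2.5 and then 4.27, 3.90, 4.15 and 4.59 at P7.5, with no overlap, and rose by 2.69 ± 0.38 (6.44-fold, limma adjusted p = 0.000281; 1.74 in the scanner software's log ratio). Among 22 complement genes 7 were higher and 1 lower (median 0.39). C4bp, which restrains complement, rose by 1.97 ± 0.26, and C9, which forms the lytic pore, by 1.57 ± 0.14. The member that fell, C6, another pore component, changed by -0.57 ± 0.18, with overlapping groups.

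Enzymes that conjugate drugs and metabolites rose across many members. Of 65 genes tested, 27 were higher and 3 lower at P7.5, with a median of 0.41. The list members named below all rose. When spots with a non-uniform local background, left out here, were kept, 15 were higher. Inmt, which methylates indoleamines and is not in that list, is one of the 14 largest rises. It read -0.87, -1.28, 1.09 and -0.94 at P2.5, then 3.75, 3.55, 3.98 and 4.05 at P7.5, a rise of 4.33 ± 0.40 (20.2-fold, limma adjusted p = 1.68e-05). At P2.5, replicate 3 was about 2 log2 units above the other libraries, yet every P7.5 library was above it. In the list, Nnmt, which methylates nicotinamide, rose from -2.0, -2.09, -1.12 and -1.60 to 0.21, 0.55, 1.55 and 1.24, by 2.59 ± 0.28. In both P7.5 replicates 3 and 4 it was about 1 unit above replicates 1 and 2.

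The glucuronosyltransferase relatives Ugt3a1 and Ugt3a2, which add sugars to lipophilic compounds, rose by 1.78 ± 0.14 and 2.21 ± 0.26. The change of Ugt3a2 was 1.41 as the mean of all its probes and 1.23 in the scanner software's log ratio. Sult1b1, a sulfotransferase, rose by 1.30 ± 0.12, but its change was 0.33 and not called in the scanner software's log ratio. Adh4, an alcohol dehydrogenase, rose by 1.56 ± 0.19, a call lost in the scanner software's log ratio (0.95). Glyat, which joins glycine to acyl groups and was counted with amino acid breakdown, rose by 2.03 ± 0.18 (1.17 in that log ratio).

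Slc22a7, a transporter that takes organic anions from blood into hepatocytes, was 1.76, 1.39, 1.56 and 2.52 at P2.5, as against 4.72, 4.68, 4.94 and 5.2 at P7.5. The groups lay far apart and the rise was 3.08 ± 0.20 (8.43-fold, limma adjusted p = 1.15e-06), but the scanner software's log ratio gave 0.82, not called. Rdh16, which oxidises retinol, was tightly grouped at 0.11, 0.23, 0.02 and 0.20 and then 2.76, 2.52, 3.04 and 3.10, a rise of 2.71 ± 0.13 (limma adjusted p = 2.11e-07). The cytochrome P450 genes of drug metabolism were more mixed, with 10 of 42 higher, 4 lower and a median of 0.23. Their shares, 23.8% higher and 9.52% lower, stand beside 19.5% and 15% over all genes. Their count higher was 5 in the scanner software's log ratio, 6 without P7.5 replicate 4 and 3 with spots of non-uniform background kept.

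Genes of amino acid breakdown rose in many members, beside 19.5% higher over all genes. Of 66 tested, 30 were higher and 2 lower (median 0.36), and 19 were higher in the scanner software's log ratio. Their count higher was 12 with spots of non-uniform background kept. Tdo2, which opens the ring of tryptophan, read 1.0, 0.72, 1.53 and 0.81 at P2.5 and then 3.17, 2.08, 3.21 and 3.94 at P7.5, a rise of 2.08 ± 0.30 (limma adjusted p = 0.000349). Its P7.5 values ranged widely, with replicate 2 lowest, but none reached the P2.5 values; the call was lost in the scanner software's log ratio. Bckdhb, a subunit of the complex that degrades branched-chain keto acids, rose by 0.77 ± 0.10, Amt of the glycine cleavage system by 0.69 ± 0.09 and Gamt, which makes creatine, by 0.52 ± 0.09. The exceptions were Csad, which makes the taurine precursor hypotaurine, and Prodh, which oxidises proline. Csad fell from 4.1, 3.98, 3.50 and 3.06 to 2.18, 2.06, 1.52 and 2.03 (change -1.71 ± 0.20, limma adjusted p = 9.90e-05), with every P7.5 library below every P2.5 library. Prodh fell by 0.38 ± 0.13, with overlapping groups (limma adjusted p = 0.0369).

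Of the 8 urea cycle genes, which turn ammonia from amino acids into urea, 4 were higher and none lower (median 0.42; 2 were higher in the scanner software's log ratio). Otc, which makes citrulline in mitochondria, rose from 5.60, 5.13, 5.81 and 5.91 to 6.81, 6.99, 6.98 and 7.03, by 1.34 ± 0.16. Ass1, which joins citrulline to aspartate, rose by 0.82 ± 0.17, Nags, which makes the activator of the cycle, by 0.51 ± 0.13, and the ornithine transporter Slc25a15 by 0.68 ± 0.20. Otc (0.75) and Nags were not called in the scanner software's log ratio, and Slc25a15 values of the 2 ages overlapped.

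The largest fall among the genes reported here was in Aqp3, a channel for water and glycerol. It read 4.12, 4.16, 4.32 and 3.30 at P2.5, then 0.42, 0.76, 0.78 and 0.08 at P7.5, a fall of 3.46 ± 0.20 on the log2 scale (11-fold lower, limma adjusted p = 7.72e-07). P2.5 replicate 4 was about 1 unit below the other P2.5 libraries and still far above P7.5. Acot1, which splits fatty acyl-CoA in the cytosol, went from 2.5, 1.40, 2.46 and 1.25 to -0.70, -0.37, -0.52 and -0.82 (change -2.5 ± 0.30, limma adjusted p = 0.0001). In both genes the ages did not overlap, which was a condition of their selection. Smaller falls were those of Angptl4, a secreted inhibitor of lipoprotein lipase, which fell by 1.53 ± 0.19, and of Acsl1, which activates long-chain fatty acids and fell by 1.40 ± 0.25. Hif3a, a hypoxia-inducible factor subunit, went from 2.63, 2.69, 3.14 and 1.93 to -0.06, -0.07, -0.03 and -0.19 (change -2.69 ± 0.20; -0.96 as the mean of all its probes).

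Fgf21, a hormone of the fasting and ketogenic liver, was chosen after its values were seen. It read 3.48, 3.14, 2.08 and -0.31 at P2.5, as against -0.19, -0.16, -0.59 and -0.67 at P7.5, and the fall was 2.5 ± 0.68 (limma adjusted p = 0.0128). P2.5 replicates 1 to 3 were high, while P2.5 replicate 4 lay within the range of the P7.5 libraries. In Aqp3, Hif3a and Fgf21 alike, P2.5 replicate 4 was the lowest of its group. As stated, this library was also the nearest to P7.5 over all genes; its part in these falls was not tested.

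Over all 47 genes of fatty acid oxidation and ketone bodies, 4 were higher (8.51%) and 10 lower (21.3%), with a median of -0.10. Without P2.5 replicate 3, 11 were higher. Over all genes tested the shares were 19.5% and 15%. Apoa4, an apolipoprotein of lipid-rich particles, fell from 5.89, 6.01, 6.04 and 5.95 to 2.59, 3.59, 3.55 and 3.22 (change -2.74 ± 0.21), but by the scanner software's log ratio its change was -0.73 and not called. Fatty acid synthesis genes were likewise mixed, with 3 of 23 higher and 8 lower (median 0.04). Elovl6, which lengthens palmitate, fell from 0.60, 0.62, 0.11 and 0.67 to -1.13, -0.91, -0.98 and -1.16, by 1.54 ± 0.18. Fasn, the fatty acid synthase, fell by 0.57 ± 0.11 and Acaca, which supplies its malonyl-CoA, by 0.72 ± 0.15. Pklr, the liver pyruvate kinase, fell by 1.20 ± 0.22, a call that was lost in the scanner software's log ratio. Srebf1, the transcription factor known to drive many genes of this list, instead rose from 0.89, 1.11, 1.38 and 0.96 to 1.89, 1.91, 2.06 and 2.38 (change 0.97 ± 0.14, limma adjusted p = 0.000325).

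Targets of Atf4, the transcription factor of amino acid shortage, were lower in 8 of 19 and higher in 2 (median -0.20), beside 15% lower over all genes. Psat1 and Phgdh, enzymes of serine synthesis, fell by 1.48 ± 0.16 and 0.95 ± 0.21. Asns, which makes asparagine, fell from 0.16, -0.06, -0.55 and -0.43 to -1.13, -1.06, -1.46 and -1.06 (change -0.96 ± 0.19). Atf5, a related transcription factor, went from 4.1, 3.99, 4.07 and 3.26 to 2.53, 2.57, 2.39 and 2.37, and again P2.5 replicate 4 was the lowest of its age.

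Bile acid genes went both ways, with 9 of 34 higher (26.5%) and 7 lower (20.6%), beside 19.5% and 15% over all genes (list median 0.19). In the scanner software's log ratio 4 were higher and 5 lower, and 2 were higher with spots of non-uniform background kept. Cyp39a1, which hydroxylates an oxysterol on the way to bile acids, read 4.07, 3.36, 4.44 and 3.23 at P2.5 and then 1.06, 1.37, 0.97 and 1.08 at P7.5, a fall of 2.66 ± 0.23 (6.3-fold lower, limma adjusted p = 1.02e-05). The efflux pump Abcc4 fell by 0.57 ± 0.10. Abcg8, part of the sterol pump of the bile canaliculus, rose by 0.90 ± 0.16 and the uptake carrier Slco1a4 by 0.70 ± 0.14.

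Growth hormone and insulin-like growth factor genes went both ways, with 4 of 24 higher (16.7%) and 6 lower (25%), median -0.13. Over all genes tested the shares were 19.5% and 15%. Igf1, the circulating growth factor that the liver makes under growth hormone, was 2.80, 2.33, 1.69 and 2.26 at P2.5, then 4.74, 4.45, 4.97 and 4.74 at P7.5, a rise of 2.45 ± 0.18 (5.48-fold, limma adjusted p = 3.50e-06). P2.5 replicate 3 was lowest and no P7.5 library came near the P2.5 range. Ghr, the growth hormone receptor, rose from 1.01, 0.78, 0.62 and 0.90 to 2.18, 1.84, 2.07 and 2.24, by 1.25 ± 0.12. Igf1r, the receptor of IGF1, fell by 1.47 ± 0.18, Igf2r, which clears IGF2, by 1.46 ± 0.20. Insr, the insulin receptor, fell by 1.08 ± 0.20 (-0.64 as the mean of all its probes).

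Genes typical of fetal liver fell in 7 of 19 and rose in 1 (median -0.32). None was called higher with the slide as a fixed block or when most single libraries were left out. Lin28b, an RNA-binding protein of fetal progenitors, was 1.83, 2.29, 1.83 and 1.82 at P2.5, as against -0.32, -0.02, -0.17 and -0.32 at P7.5 (change -2.15 ± 0.14, limma adjusted p = 1.24e-06; -1.08 as the mean of all its probes). The P2.5 and P7.5 values were each tightly grouped, apart from P2.5 replicate 2. Tspan8, a membrane tetraspanin, fell by 1.40 ± 0.13, Cd24a, a surface glycoprotein of immature cells, by 1.21 ± 0.17 and Acss1, a mitochondrial acetyl-CoA synthetase, by 2.27 ± 0.21. Among 18 imprinted growth genes 6 were lower and 1 higher (median -0.23). Dlk1, a surface protein of hepatoblasts, fell from 0.41, -0.16, -0.88 and -0.02 to -2.39, -2.73, -2.81 and -2.55 (change -2.46 ± 0.34). Grb10, an adaptor that restrains insulin signalling, fell by 1.59 ± 0.25. Plagl1, a zinc finger transcription factor, fell by 2.08 ± 0.34 by its brightest probe, while its other probes gave 0.01. The gene that rose was Cdkn1c, a cell cycle inhibitor, from 4.72, 4.66, 4.89 and 4.93 to 5.34, 5.49, 5.52 and 5.60 (change 0.69 ± 0.13).

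The rest of the 14 largest falls held genes of several kinds. Igsf1, a membrane immunoglobulin protein, went from 5.12, 5.33, 5.06 and 5.08 to 1.73, 2.18, 1.91 and 2.04, a fall of 3.18 ± 0.19 (-1.92 in the scanner software's log ratio and -1.56 as the mean of all its probes). Rgs16, a brake on G protein signalling, went from 2.24, 2.98, 4.0 and 2.78 to -0.12, 0.69, -0.26 and -0.56, a fall of 3.06 ± 0.37, with P2.5 values spread over more than 1 unit. Ggt1, which splits glutathione outside the cell, went from 2.22, 2.0, 2.63 and 1.68 to -0.59, -0.45, -0.61 and -0.70, a fall of 2.72 ± 0.16. None of the 3 had overlapping groups, which was a condition of their selection. Slc36a2, a proton-coupled carrier of small amino acids, went from 1.96, 2.09, 2.80 and 2.46 to -0.11, 0.30, 0.01 and 0.00 and fell by 2.28 ± 0.23 (-3.83 in the scanner software's log ratio). Atp1b2, a subunit of the sodium pump, fell by 2.29 ± 0.24, and the transcript of the pseudogene Serpina4-ps1 by 2.62 ± 0.32, with 2 of 4 P7.5 arrays well above background.

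Red cell precursor genes had the lowest median change of the lists described here (-1.32), with 22 of 31 lower and none higher. Ermap, an erythroid surface protein, was 4.04, 4.80, 4.80 and 4.48 at P2.5 and then 2.29, 2.21, 1.87 and 2.09 at P7.5, a fall of 2.41 ± 0.18 (5.33-fold lower, limma adjusted p = 3.44e-06; -1.58 in the scanner software's log ratio). Epor, the erythropoietin receptor, went from 3.38, 3.60, 3.45 and 3.40 to 2.12, 2.07, 1.97 and 1.83 (change -1.46 ± 0.09). All P7.5 libraries were below all P2.5 libraries in both genes. Add2, an adducin of the membrane skeleton, fell by 1.61 ± 0.13 and Cldn13, a claudin of mouse erythroid cells, by 1.52 ± 0.13. Kel, a blood group protein, fell by 1.65 ± 0.11, but its change was 0.35 and not called in the scanner software's log ratio, and Cldn13 was not called there. The mean of the list was 3.98 to 4.29 in E18.5 libraries, 3.11 to 3.50 at P2.5 and 2.18 to 2.23 at P7.5. In whole liver, fewer cells of a type and less RNA per cell cannot be told apart.

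Platelet precursor (megakaryocyte) genes were lower in 13 of 16 and higher in 1 (median -0.59), with 7 lower in the scanner software's log ratio. The count lower was also 7 with spots of non-uniform background kept. Itga2b, a subunit of the platelet fibrinogen receptor, went from 2.85, 2.88, 2.68 and 2.93 to 0.94, 0.80, 0.80 and 0.91, a fall of 1.97 ± 0.23 (limma adjusted p = 8.30e-05). Mmrn1, a protein of platelet granules, fell by 1.33 ± 0.18 and Gp5, of the von Willebrand factor receptor complex, by 1.12 ± 0.15. The member that rose, Clec1b, a lectin receptor that liver endothelium and Kupffer cells also carry, changed by 0.59 ± 0.21 (limma adjusted p = 0.0452), a call lost in the scanner software's log ratio and when most single libraries were left out.

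White cell lineages differed in their counts. Of 19 granulocyte and monocyte genes none was higher and 3 were lower (median -0.29). Without P2.5 replicate 1, 8 were lower. The share lower, 15.8%, was near the 15% of all genes, while 19.5% of all genes were higher. The 3 called lower were Ctsg, Mpo and Csf3r. Ctsg and Mpo, enzymes of neutrophil precursor granules, fell by 1.65 ± 0.26 and 1.42 ± 0.25. Csf3r, the receptor for granulocyte growth factor, fell by 0.91 ± 0.23. Mpo was not called in the scanner software's log ratio. Of 17 B lineage genes 4 were higher and 4 lower (23.5% each), beside 19.5% and 15% over all genes. Dntt, which adds bases at rearranging immunoglobulin genes, went from -0.52, -1.02, -0.86 and -1.34 to 1.1, 1.17, 1.15 and 1.60 (change 2.19 ± 0.18, limma adjusted p = 6.41e-06). Vpreb1, Vpreb2 and Igll1, parts of the surrogate light chain of pre-B cells, rose by 1.69 ± 0.22, 1.22 ± 0.16 and 0.84 ± 0.25. Vpreb1 and Vpreb2 are near-identical copies, and Igll1 was not called in the scanner software's log ratio. Ms4a1, which encodes CD20 of later B cells, fell by 1.02 ± 0.15. Rag1, which cuts immunoglobulin genes for rearrangement, went from 2.23, 1.62, 1.07 and 1.77 to 0.87, 0.85, 0.74 and 0.80 and fell by 0.86 ± 0.26 (limma adjusted p = 0.0231; -0.52 as the mean of all its probes). Its call was lost in the scanner software's log ratio and without P2.5 replicate 1, P7.5 replicate 3 or P7.5 replicate 4.

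T and NK cell genes rose in 11 of 18 and fell in none (median 0.38). Cd3d, a chain of the T cell receptor complex, was 0.05, 0.49, 0.43 and 0.76 at P2.5, then 2.5, 3.33, 2.77 and 3.25 at P7.5, a rise of 2.53 ± 0.20 (5.78-fold, limma adjusted p = 5.74e-06). Within P7.5, replicate 1 was lowest, and it was still above all P2.5 libraries. Its partner chain Cd3g rose by 1.05 ± 0.16, the T cell kinase Lck by 0.89 ± 0.12 and Il2rb, a receptor chain for interleukins 2 and 15, by 1.13 ± 0.19.

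Eosinophil and mast cell genes split within their list, with 8 of 15 higher and 3 lower (median 0.37). In the scanner software's log ratio 5 were higher, and with spots of non-uniform background kept 3 were. Prg2, the main protein of eosinophil granules, rose by 2.92 ± 0.21 (limma adjusted p = 3.00e-06; 1.63 in the scanner software's log ratio). The eosinophil ribonuclease gene Ear6 went from 0.08, 0.20, 0.42 and 0.03 to 2.34, 2.17, 2.12 and 1.86, a rise of 1.94 ± 0.12. Epx, eosinophil peroxidase, rose by 1.32 ± 0.12, with 2 of 4 P2.5 arrays well above background, and Prg3, a relative of Prg2, by 1.03 ± 0.12. Ear6 belongs to a family of near-identical copies. The members that fell are known from mast cells, basophils and progenitors: Prss34, a basophil and mast cell protease, fell by 0.93 ± 0.25, Cpa3, a granule carboxypeptidase, by 0.87 ± 0.22 and Gata2, a progenitor transcription factor, by 0.39 ± 0.09. The list mean was 2.43 to 2.63 in E18.5 libraries, 1.46 to 1.78 at P2.5 and 2.04 to 2.13 at P7.5, so that P2.5 held the lowest values of the 3 ages.

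Macrophage genes were higher in 7 of 19 and lower in 4 (median 0.32). In the scanner software's log ratio 3 were higher, and with spots of non-uniform background kept only 1 was. Timd4, a receptor for dying cells on resident Kupffer cells, rose from 3.38, 3.92, 2.99 and 4.30 to 4.49, 5.61, 4.94 and 5.40, by 1.46 ± 0.28, and Folr2, a folate receptor of resident macrophages, by 1.1 ± 0.14. Cx3cr1, the chemokine receptor of monocyte-derived cells, went the other way, from 4.70, 4.73, 4.27 and 3.54 to 2.34, 2.99, 2.99 and 2.75 (change -1.55 ± 0.23, limma adjusted p = 0.000408). Mrc1, the mannose receptor, which sinusoidal endothelium shares, fell by 0.99 ± 0.22, and Slc40a1, the iron exporter, by 0.69 ± 0.11. The calls of Timd4 and Mrc1 were lost in the scanner software's log ratio.

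Endothelial genes were lower in 12 of 25 and higher in 1 (median -0.25), with 6 lower in the scanner software's log ratio. The count lower was 5 with spots of non-uniform background kept. Vwf, which tethers platelets, went from 3.71, 3.61, 3.91 and 3.68 to 2.25, 2.48, 2.66 and 2.46, a fall of 1.26 ± 0.14. Lyve1, the hyaluronan receptor of sinusoids, and Ptprb, a vascular phosphatase, fell by 1.21 ± 0.19 and 1.42 ± 0.20, but neither was called in the scanner software's log ratio (-0.08 and -0.26). The gene that rose, Fcgr2b, an antibody receptor of sinusoids, changed by 0.48 ± 0.16 with overlapping groups.

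Genes of cell division fell together. Of 50 mitosis genes 31 were lower and none higher (median -0.47), and of 34 DNA replication genes 14 were lower and 1 higher (median -0.32). Mki67, the protein that coats mitotic chromosomes, was -0.22, 0.30, 0.19 and 0.06 at P2.5, as against -1.81, -1.87, -1.79 and -1.88 at P7.5, a fall of 1.92 ± 0.28 (3.78-fold lower, limma adjusted p = 0.000393). The 4 P7.5 values lay within 0.1 unit of each other and far below all P2.5 values. Cenpe, the motor that aligns chromosomes, fell from -0.98, -0.91, -1.01 and -0.92 to -2.68, -2.47, -2.32 and -2.47. Ccna2 and Ccnb1, cyclins of S phase and mitosis, fell by 0.99 ± 0.10 and 0.94 ± 0.14, Aspm, a spindle pole protein, by 1.13 ± 0.14 and Ccnf, a cyclin of the G2 phase, by 0.96 ± 0.14. Among replication genes, Cdc6, which loads the helicase, fell by 1.0 ± 0.14, the helicase subunit Mcm2 by 0.68 ± 0.12, the polymerase Pole by 0.90 ± 0.12 and Rrm1, which makes deoxynucleotides, by 0.81 ± 0.13. Gins2, another helicase part, was the member that rose, by 0.39 ± 0.14 (limma adjusted p = 0.0416). Its call was lost with the slide as a fixed block, in the scanner software's log ratio and when most single libraries were left out. Red cell precursors divide, and their genes fell in the same libraries; the part of that fall in the lower division genes was not tested.

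Promoters of mitosis genes are known for CCAAT boxes, bound by the factor NF-Y, and for the cell cycle homology region, a repressor element. Those of Mki67 and Ccnb1 are shown as examples, with matches to CCAAT or TTTGAA on either strand in capitals. Each is the 200 bases before the RefSeq start of the gene (build GRCm38.p6, minus strand), at chr7:135716380-135716579 for Mki67 and chr13:100786487-100786686 for Ccnb1.
Mki67: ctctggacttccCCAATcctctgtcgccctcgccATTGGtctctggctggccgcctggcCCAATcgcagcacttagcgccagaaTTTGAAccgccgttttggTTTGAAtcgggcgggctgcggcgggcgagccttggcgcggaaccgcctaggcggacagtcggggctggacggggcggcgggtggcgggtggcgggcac
Ccnb1: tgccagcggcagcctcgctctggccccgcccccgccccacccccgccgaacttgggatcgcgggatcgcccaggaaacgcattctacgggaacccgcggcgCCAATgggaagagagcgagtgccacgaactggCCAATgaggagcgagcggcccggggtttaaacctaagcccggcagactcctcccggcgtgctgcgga
The Mki67 promoter held 5 matches and the Ccnb1 promoter 2. CCAAT was found in 32 of the 42 mitosis promoters in the RefSeq table and in 29.3% of all 32851 promoters, and TTTGAA in 16 of 42 and 12.5%. A match describes the letters only and shows no binding.

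Genes that interferon switches on were uneven among the P2.5 libraries. Of 23 interferon response genes, 8 were higher and none lower (median 0.91). Zbp1, a sensor of nucleic acids, read -0.75, 2.30, -0.38 and 2.51 at P2.5 and then 3.01, 3.03, 3.01 and 3.14 at P7.5, a rise of 2.12 ± 0.60 (limma adjusted p = 0.0151). At P2.5, replicates 1 and 3 were low and replicates 2 and 4 close to P7.5. Isg15, a ubiquitin-like modifier, repeated that split with 0.23, 2.29, 0.33 and 2.70 and then 2.78, 2.79, 2.88 and 3.22 (change 1.54 ± 0.45, limma adjusted p = 0.0195), a call lost without P2.5 replicate 1 or P7.5 replicate 4. Gbp3, a guanylate-binding protein of host defence, was 0.35, 3.82, 0.23 and 4.72 and then 4.66, 4.84, 4.35 and 4.99 (change 2.43 ± 0.81). P2.5 replicate 4 reached the P7.5 range in Gbp3, and its call was lost with the fit restricted to the 8 arrays compared (limma adjusted p = 0.071) and without P2.5 replicate 1 or 3 or any single P7.5 library.

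The same split stood in the mean of the whole list. It was 0.00, 1.66, -0.03 and 2.15 in P2.5 replicates 1 to 4, 1.85, 1.89, 1.79 and 2.20 at P7.5, and between 0.51 and 0.81 at E18.5. Without P2.5 replicate 4 the count of higher members was 18, without P2.5 replicate 1 or P7.5 replicate 4 it was 4, without any of the other libraries but P2.5 replicate 2 it was 5, and with the slide as a fixed block 13. Bst2, which holds virus particles at the cell surface, rose by 1.32 ± 0.29, Ifit3, which binds viral RNA, by 1.18 ± 0.31 and Oas1a, which senses double-stranded RNA, by 0.91 ± 0.23. Among the 14 largest rises were other genes known to respond to interferon or inflammation. Cxcl9, a chemokine that draws T cells, was 1.68, 4.95, 0.82 and 5.29 and then 5.68, 5.94, 5.66 and 5.97 (change 2.63 ± 0.79, limma adjusted p = 0.0214), and its call was lost without P2.5 replicate 1, without P7.5 replicate 2 and in the scanner software's log ratio (0.98). Gbp2b rose by 2.55 ± 0.45, with 3 of 4 P2.5 arrays well above background, and is one of a family of close copies. Acod1, which makes itaconate in activated macrophages, went from -3.52, -1.14, -3.01 and -0.34 to 0.49, 0.77, 0.21 and 1.26 (change 2.69 ± 0.55).

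**Figure D3:**
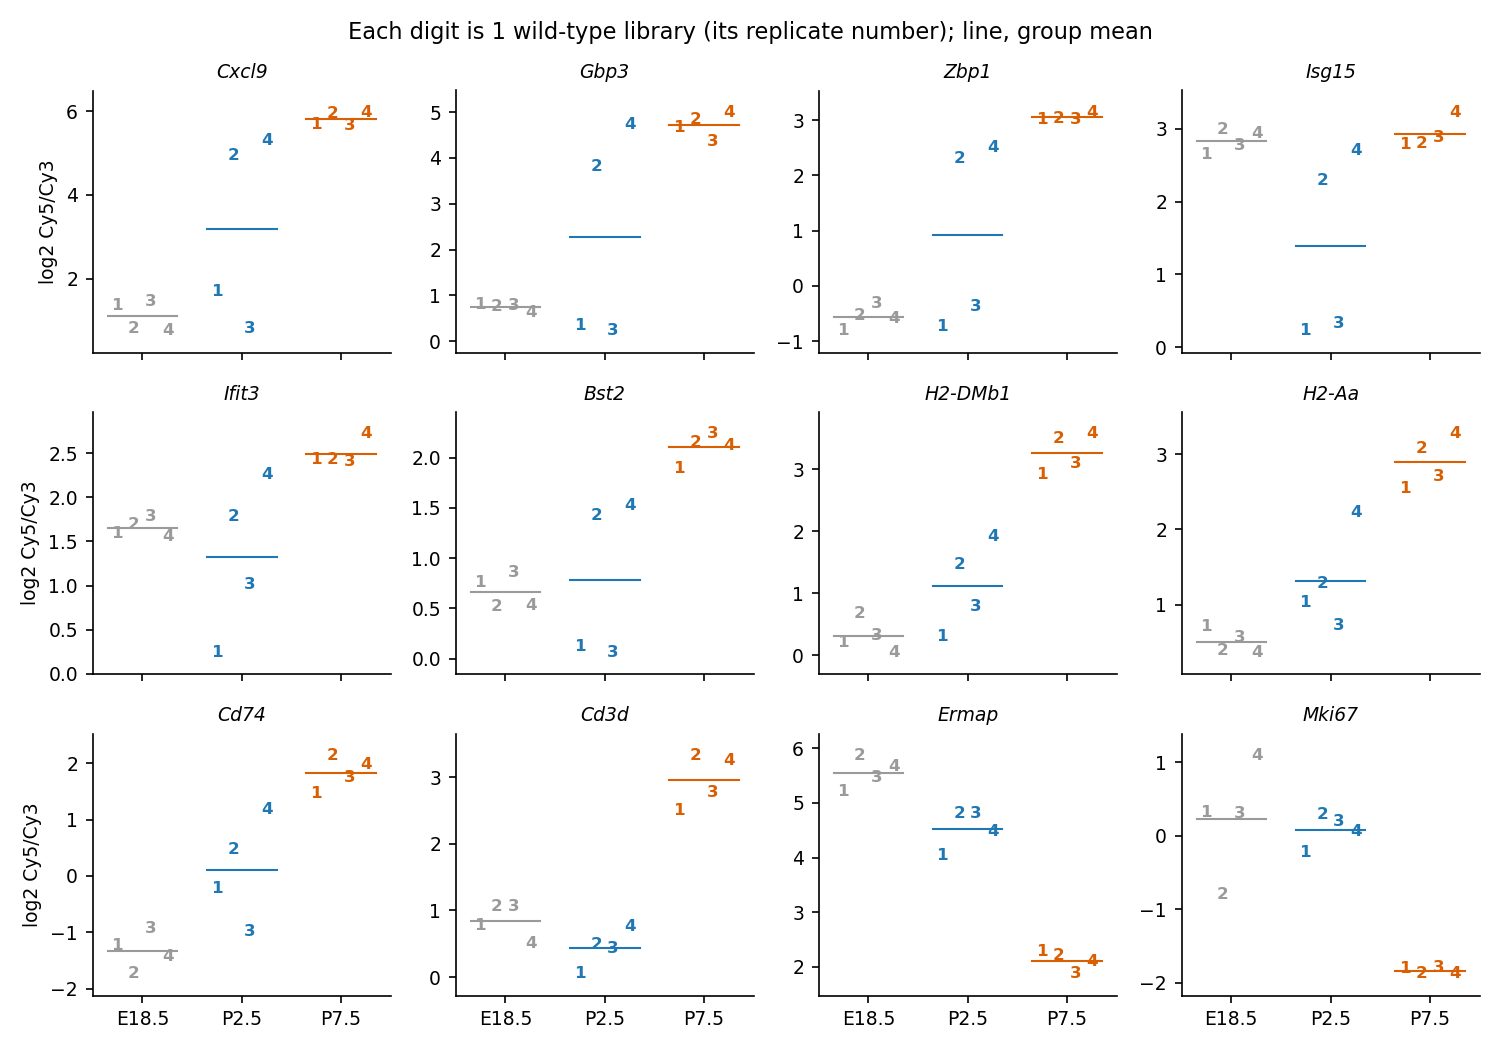
Log2 Cy5/Cy3 (y axis) of 12 genes in each of the 12 WT libraries of the 3 ages, with 1 panel per gene. Each digit is the replicate number of 1 library and each line a group mean; in the interferon genes P2.5 replicates 1 and 3 sit apart from 2 and 4, as in Zbp1 (-0.75, 2.30, -0.38 and 2.51), while in Cd3d, Ermap and Mki67 the P2.5 libraries stay together.

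MHC class II genes, by which cells show antigen to T cells, also rose. Of 9 tested 6 were higher and none lower (median 1.15), and the counts were the same when any 1 library was left out. H2-Ab1, a chain of the class II molecule, was 2.78, 3.49, 2.89 and 3.43 at P2.5, then 4.17, 4.29, 4.28 and 4.46 at P7.5 (change 1.15 ± 0.15, limma adjusted p = 0.000173). H2-DMb1, part of the peptide loader, was 0.30, 1.46, 0.80 and 1.91 and then 2.91, 3.50, 3.09 and 3.57 (change 2.15 ± 0.29). The ages did not overlap in either gene, though P2.5 replicates 2 and 4 were again above replicates 1 and 3. H2-Aa rose by 1.59 ± 0.26, H2-Eb1 by 1.05 ± 0.15, H2-DMa by 1.62 ± 0.29 and Cd74, the invariant chain, by 1.71 ± 0.36. H2-Aa was not called in the scanner software's log ratio. The mean of the list was 0.74, 1.43, 0.64 and 1.81 in P2.5 replicates 1 to 4, then 2.05, 2.42, 2.13 and 2.52 at P7.5.

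Promoters of these 2 lists are shown since their members moved together within P2.5. The interferon-stimulated response element was searched as GAAA, 2 free bases and GAAA, and the Y box of class II promoters as CTGATTGG, on both strands, in the 200 bases before the RefSeq start (build GRCm38.p6), with matches in capitals. The Y box includes the reverse of CCAAT. Isg15 lies at chr4:156200819-156201018 (minus strand), Ifit3 at chr19:34583329-34583528 (plus), H2-Aa at chr17:34287824-34288023 (minus) and H2-Eb1 at chr17:34305667-34305866 (plus).
Isg15: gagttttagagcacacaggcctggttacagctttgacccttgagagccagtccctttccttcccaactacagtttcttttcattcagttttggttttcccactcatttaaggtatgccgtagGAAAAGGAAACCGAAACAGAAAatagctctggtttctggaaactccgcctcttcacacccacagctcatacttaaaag
Ifit3: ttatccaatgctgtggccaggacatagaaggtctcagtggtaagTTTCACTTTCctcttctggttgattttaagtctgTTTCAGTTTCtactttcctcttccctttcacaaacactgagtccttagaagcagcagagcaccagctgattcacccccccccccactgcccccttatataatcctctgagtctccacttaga
H2-Aa: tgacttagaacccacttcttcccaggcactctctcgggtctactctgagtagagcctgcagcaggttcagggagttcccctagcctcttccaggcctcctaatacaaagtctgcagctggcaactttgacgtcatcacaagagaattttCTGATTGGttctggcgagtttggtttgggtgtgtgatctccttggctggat
H2-Eb1: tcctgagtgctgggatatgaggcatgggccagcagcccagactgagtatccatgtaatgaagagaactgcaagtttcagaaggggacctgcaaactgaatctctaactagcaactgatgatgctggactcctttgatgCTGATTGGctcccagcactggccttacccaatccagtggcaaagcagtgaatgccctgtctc
Isg15 held 3 overlapping matches of the response element and Ifit3 held 2, while H2-Aa and H2-Eb1 each held 1 Y box. The response element was found in 10 of 19 interferon response promoters and in 2.27% of all 32851. The Y box was found in 3 of 7 class II promoters, in 10 of 42 mitosis promoters and in 3.54% of all.

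Genes of the mitochondrial respiratory chain and of the proteasome rose by small steps. Of 47 oxidative phosphorylation genes 26 were higher and none lower (median 0.36), and of 29 proteasome genes 14 were higher and none lower (median 0.29). Sdhb, a subunit of complex II, was 1.29, 0.95, 1.39 and 1.31 at P2.5, as against 2.11, 2.14, 2.22 and 2.21 at P7.5 (change 0.94 ± 0.10, limma adjusted p = 4.96e-05). Atp5e, a subunit of the ATP synthase, rose by 1.11 ± 0.14 and Ndufs3 of complex I by 0.69 ± 0.11. Psmb3 and Psmb6, chains of the proteasome core, rose by 0.61 ± 0.08 and 0.66 ± 0.09. The P2.5 and P7.5 values of Sdhb did not overlap. Cytosolic ribosomal protein genes were lower in 9 of 47 and higher in 3 (median -0.13), with 5 lower without P7.5 replicate 1, 2 or 3. With the 6 arrays on shared slides 15 oxidative phosphorylation genes were higher, and with Cy5 alone 16.

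Over all genes tested, the shares that rose and fell ran with gene length. With genes ordered by the span of the gene in the genome and cut into 5 equal groups, the share higher at P7.5 went from 24.8% in the shortest (median span 3.05 kb) to 12% in the longest (110 kb). The share lower went from 5.82% to 26%. The correlation of span with change was -0.24 (Spearman, across 16403 genes, which are not independent). Oxidative phosphorylation genes have a median span of 7.13 kb and proteasome genes one of 12.4 kb. With the trend taken out of each array, which was chosen after seeing the data, 20 of 47 and 10 of 29 were higher and none lower. Ribosomal protein genes, with a median span of 3.67 kb, were then lower in 24 of 47, against 9 before. Taking out this trend lowers the change of short genes, so that this count was partly set by the correction. Mitosis and erythroid genes then fell in 35 of 50 and 23 of 31. RNA quality was not given in the sources used here, and its part in the trend was not tested.

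**Figure D4:**
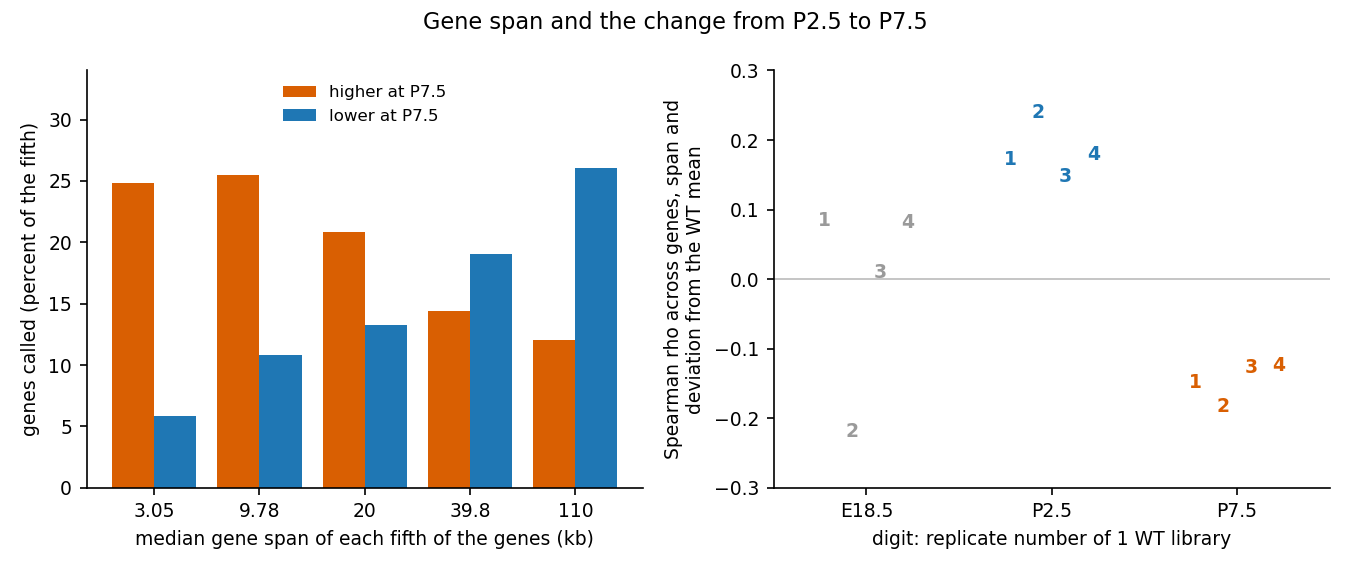
Left, percent of genes called higher (orange) or lower (blue) at P7.5 in 5 equal groups of genes ordered by gene span, labelled with the median span in kb; the share lower goes from 5.82% in the shortest group to 26% in the longest. Right, Spearman correlation across genes between span and a library's deviation from the WT mean, with each digit 1 library. All 4 P2.5 libraries are above 0 (0.148 to 0.240) and all 4 P7.5 libraries below it (-0.183 to -0.124). The E18.5 libraries read 0.084, -0.218, 0.010 and 0.082 (replicates 1 to 4), so that E18.5 replicate 2 lay below every P7.5 library.

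Livers of GCGR KO mice were profiled at the same ages, and the change from P2.5 to P7.5 was compared between genotypes by an interaction term. KO and WT arrays lay on separate slides, scanned with different versions of the scanner software, and P2.5 and P7.5 KO arrays also lay on different slides, so that slide and age cannot be told apart in KO. The library labelled P7.5 KO replicate 2 read 5.02 for Gcgr, near the WT libraries, where the other 3 P7.5 KO libraries read 0.00, 0.26 and -0.01. The interaction passed in 5369 of 16956 genes (31.7%; limma), 2701 with a higher and 2668 with a lower change in KO, and in 5769 without that library. Of the 28 largest WT rises and falls reported here, 27 changed in the same direction in KO, and 10 passed the interaction (14 without that library), beside 31.7% of all genes. The 28 were selected for large changes in WT, and the share of all genes with the same direction was not counted.

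Prg2 was the gene of the 28 that did not change in the same direction. Its KO libraries read 3.97, 3.83, 3.69 and 3.62 at the younger age and 3.67, 3.42, 3.81 and 3.85 at the older, a change of -0.09, against 2.92 in WT. The difference of changes was -3.01 ± 0.25 (limma adjusted p = 8.11e-07; -2.92 without P7.5 KO replicate 2). The eosinophil genes Ear6, Epx and Prg3 likewise rose in WT, while in KO their changes were -0.31, -0.18 and -0.76, with differences of -2.24 ± 0.47, -1.5 ± 0.47 and -1.79 ± 0.41. Aqp3, in contrast, in KO read 4.47, 4.37, 4.44 and 3.97 at the younger age and 0.35, -0.11, 1.08 and 1.35 at the older, a change of -3.65, and the difference between genotypes was -0.18 ± 0.35 (limma adjusted p = 0.729).

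Among the largest differences in the positive direction, genes fell in WT and had a positive change in KO. Ptprb changed by -1.42 in WT and 1.77 in KO, a difference of 3.19 ± 0.37 (limma adjusted p = 1.11e-05). Atp2b2, a calcium pump, differed by 3.54 ± 0.38, Nid1 and Fn1, proteins of the extracellular matrix, by 3.14 ± 0.45 and 3.13 ± 0.45, and Eif4ebp2, a repressor of translation, by 3.12 ± 0.36. The insulin receptor gene Insr changed by -1.08 in WT and 0.77 in KO (difference 1.85 ± 0.28). The WT changes of Ptprb and Atp2b2 were not called in the scanner software's log ratio. Those of Nid1 and Insr moved by over 1.5 times as the mean of all their probes. The differences between genotypes of these genes under such alternatives are not given here. In the negative direction, Mt2, a metallothionein, read 2.48, 2.72, 3.05 and 1.81 and then 0.74, 3.27, -3.23 and -2.62 in KO libraries. The P7.5 KO values of Mt2 were spread over more than 6 units, the highest in the library labelled P7.5 KO replicate 2. Its difference was -3.29 ± 1.20 (limma adjusted p = 0.0417), and -4.53 without that library. Mmd2, a membrane protein of the progestin receptor family, differed by -2.52 ± 0.55, Gdpd2, a phosphodiesterase, by -2.35 ± 0.52 and Rnu1b6, a U1 small nuclear RNA, by -2.62 ± 0.55.

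**Figure D5:**
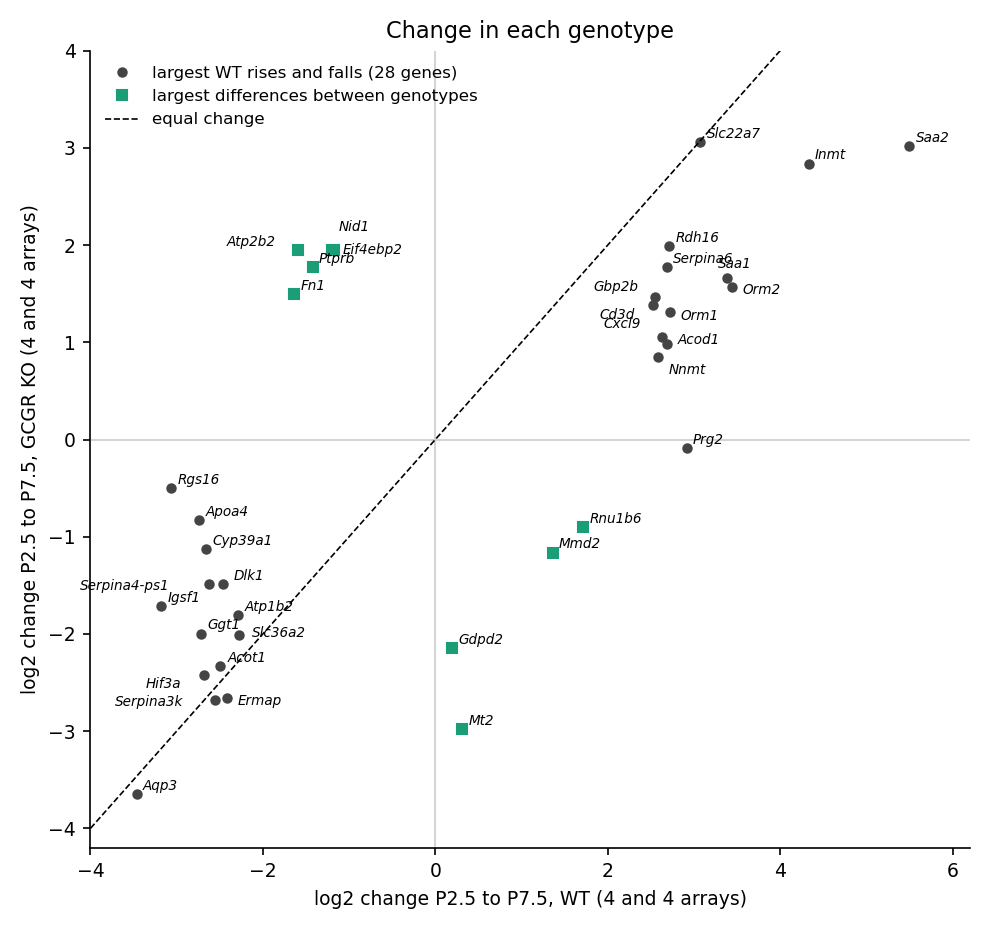
Log2 change from P2.5 to P7.5 in WT (x axis) and in GCGR KO (y axis), with 4 arrays for each genotype and age; circles are the 28 largest WT rises and falls reported here, squares the largest differences between genotypes, and the dashed line marks an equal change. Of the 28 genes 27 have the same sign on both axes, and Prg2 lies at 2.92 in WT and -0.09 in KO.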

How the data were processed

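Liver RNA (RNeasy, Quick Amp labelling, per the labels' protocols) was hybridised in Cy5 against pooled reference RNA in Cy3 on 24 arrays, with no dye swap, and 8 WT arrays at P2.5 and P7.5 were compared. The deposited scanner files give median spot and background intensity of both channels, not normalized per the file headers (Feature Extraction 11.5.1.1 for WT, 11.0.1.1 for KO; the submitters' processing notes name Agilent Feature Extraction 11). They also give a log10 ratio of Cy5 to Cy3, background- and dye-corrected by the software per the file headers. The deposited series matrix holds log2 values of unstated scale and direction, which correlated on every array with the log2 Cy5/Cy3 computed here, and it served as an alternative. Columns of other samples numbered 0. P19 and 3 month livers were not analysed here.

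In limma 3.58.1 (R 4.3.3; package data.table, version 1.17.8), spots marked as outliers or with a non-uniform feature or background were left out, since bright local background upset the fit on P7.5 WT replicate 4 and on 1 E18.5 array. Background was corrected by normexp (offset 50) and dye bias by loess, with control spots at weight 0. Median signals were used, since the files hold no mean signals. Each gene took its brightest Cy5 probe, and 12848 of 39429 probes had no symbol and were not used here. Genes were tested if that probe cleared the scanner's background limit in Cy5 on 4 or more of the 8 arrays. The fit held 12 WT arrays with a mean for each age, Benjamini-Hochberg adjustment ran over all genes tested, and the call threshold was 0.05. The interaction with genotype used all 24 arrays. The number of arrays limits the precision.

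Genes named are Gcgr, the 14 rises and 14 falls of greatest size, and the 5 greatest interactions each way. These rises and falls had a call, no overlap and the same direction within the 3 shared slides. Their signal was above background on 3 or more of 4 arrays of the higher group. From the lists, members were named out of up to 6 with the lowest adjusted p. Some members against their list's majority were also named, but not all of them. Clone and predicted names were skipped, and certain genes are not reported here. The members and lists were chosen with earlier results of these data known. Alternatives were slide blocks, replicate blocks, other arrays in the fit, other background corrections, filters and probe rules, array weights, Cy5 alone and omission of each library. The procedure was tested on simulated data.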

Additional observations from a re-analysis of the deposited data

Results flagged for a closer look

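Among the genes named, 16 of 318 groups of 4 libraries held 1 library whose gap to the nearest other as a share of the group's range exceeded Dixon's critical value; chance gives about 1 in 20 groups. The library was above the others for Saa1 in P2.5 WT replicate 4 (-0.29), Il6ra in P2.5 WT replicate 3 (2.52), Ugt3a2 in P2.5 WT replicate 4 (3.45), Ifit3 in P7.5 WT replicate 4 (2.72), Dntt in P7.5 WT replicate 4 (1.60), Lin28b in P2.5 WT replicate 2 (2.29), Plagl1 in P7.5 WT replicate 1 (0.83) and Pgam1 in P7.5 WT replicate 3 (-1.31). It was below them for Bckdhb in P2.5 WT replicate 2 (2.16), Ccnb1 in P2.5 WT replicate 3 (-0.89), Elovl6 in P2.5 WT replicate 3 (0.11), Fasn in P2.5 WT replicate 1 (-0.0823), Atf5 in P2.5 WT replicate 4 (3.26), Gdpd2 in P7.5 WT replicate 3 (-1.0), C9 in P2.5 WT replicate 1 (0.11) and Hk1 in P7.5 WT replicate 1 (-1.80).

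The change from P2.5 to P7.5 differed between KO and WT by the interaction term in 62 of the 159 genes named. Of these, 30 had a higher and 32 a lower change in KO. Over all genes the share was 31.7%. The genes named include the greatest interactions each way, which were chosen by this same term. The count of 62 was therefore partly set by the selection and cannot be compared directly with that share. The values are log2 differences, KO change minus WT change. Those over 1.5 were Atp2b2 (3.54), Ptprb (3.19), Nid1 (3.14), Fn1 (3.13), Eif4ebp2 (3.12), Plagl1 (2.94), Rora (2.12), Acsl1 (2.03), Apoa4 (1.91), Insr (1.85), Stard4 (1.81), Elovl6 (1.59), Il6ra (1.59) and Cyp39a1 (1.53). Between 0 and 1.5 lay Pklr (1.5), Igsf1 (1.46), Mrc1 (1.33), Grb10 (1.26), Itga2b (1.25), Mki67 (1.25), Igf2r (1.22), Igf1r (1.19), Csf3r (1.17), Cenpe (1.09), Vwf (1.07), Aspm (0.95), Pole (0.89), Ggt1 (0.72), Acaca (0.71) and Ccnb1 (0.58). Below -1.2 lay Mt2 (-3.29), Prg2 (-3.01), Rnu1b6 (-2.62), Mmd2 (-2.52), Gdpd2 (-2.35), Ear6 (-2.24), Prg3 (-1.79), Nnmt (-1.74), Vpreb1 (-1.73), Saa1 (-1.72), Epx (-1.5), Inmt (-1.49), Orm3 (-1.48), Clec1b (-1.31) and Saa3 (-1.30). Between -1.2 and 0 lay Cd3d (-1.14), Vpreb2 (-1.09), Il2rb (-0.96), Sult1b1 (-0.90), Add2 (-0.89), Dbp (-0.87), Lck (-0.77), Cldn13 (-0.76), Cd24a (-0.74), H2-Ab1 (-0.74), Cd3g (-0.73), Rdh16 (-0.72), Atp5e (-0.69), Psmb3 (-0.60), Sdhb (-0.46), Ndufs3 (-0.45) and Psmb6 (-0.45). KO and WT arrays lay on separate slides, and slide and age cannot be told apart in KO.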

How the results depend on the processing

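The count of 5661 called genes stayed within 1.5 times under every alternative run, from 3951 with the background fitted on all spots to 7437 with array weights; leaving out single libraries gave 4512 (without P7.5 replicate 2) to 6135 (without P2.5 replicate 3). With the 6 arrays on shared slides and slide as a block it was 4036, with Cy5 alone 5313 (2684 higher, 2629 lower), and with spots of non-uniform background kept, a choice added after seeing the data, 4084. The count of genes changed at least 2-fold was 598, or 561 to 744 when single libraries were left out, and 1020 with the scanner software's log ratio (425 higher, 595 lower); the cause was not tested. The interaction count of 5369 was 5769 without P7.5 KO replicate 2.

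Of the 159 genes named in the text, 156 passed. Under the scanner software's log ratio 127 kept their call, 27 lost it and 2 were reversed: Serpina3k (0.88) and Kel (0.35). There 33 genes moved by over 1.5 times; those whose value is not given above were Amt (1.05), Cldn13 (-0.78), Gbp2b (3.85), Epx (2.94), Prg3 (2.17), Gata2 (-0.74), Mpo (-0.60), Folr2 (0.62), Serpina4-ps1 (-4.1), Fasn (-1.07), Atp2b2 (-1.0), Mmd2 (0.68), C9 (3.09), C6 (-1.15) and Slco1a4 (1.69). Calls not said above to be lost there were those of Gp5, Cpa3, C6, Abcg8 and Slco1a4. With the mean of all probes of a gene 12 moved by over 1.5 times, among them Clec1b (0.36), Pole (-0.49), Plagl1 (-1.05), Acaca (-0.32), Nid1 (-0.77) and Hk1 (-0.72), and with Cy5 alone 8 did, Serpina3k (-4.33), Clec1b (0.39), H2-Ab1 (2.16), H2-Eb1 (2.84), Mpo (-2.85), Atf5 (-0.76), C6 (-0.32) and Pgam1 (0.46). Spots of non-uniform background kept ended 20 calls, the background fitted on all spots 19, and the omission of single libraries 2 (without P2.5 replicate 4) to 9 (without P7.5 replicate 2 or 3). Other probes were read for 35 of the named genes. Of these 46 probes, 2 went in the opposite direction and 15 others showed less than 50% of the change given.

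Same-numbered libraries of P2.5 and P7.5 had correlations of deviations of 0.12, -0.04, 0.12 and 0.22. Differently numbered libraries ran from -0.213 (P2.5 replicate 1 with P7.5 replicate 4) to 0.105 (P2.5 replicate 2 with P7.5 replicate 4). Whether the replicate numbers pair the samples was not tested. The fit with the replicate block called 5626 genes.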

Other observations

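Of 19 clock genes tested in WT liver, 4 were higher (21.1%) and 5 lower (26.3%) at P7.5 than at P2.5 (median -0.02). Over all genes tested the shares were 19.5% and 15%. Dbp, an output transcription factor of the clock, read -2.45, -2.59, -1.47 and -2.32 at P2.5 and then -0.96, -0.10, -0.57 and -1.03 at P7.5, a rise of 1.54 ± 0.24 (limma adjusted p = 0.000488) with no overlap. Per1, a core repressor of the clock, read -0.30, 0.27, 1.03 and -0.99 and then -1.17, -1.32, -1.17 and -1.03, and fell by 1.18 ± 0.30 (limma adjusted p = 0.00969), with P2.5 values spread over 2 units. Rora, a nuclear receptor of the clock, fell by 0.97 ± 0.20. The hour of collection is not given in the sources used here, and its part was not tested.

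Sugar and sterol enzymes were also mixed. Of 21 glycolysis genes 8 were higher (38.1%) and 4 lower (19%), with a median of 0.10, beside 19.5% and 15% over all genes. Hk1, the hexokinase of blood and fetal cells, fell from -0.48, -0.32, -0.50 and -0.41 to -1.80, -1.72, -1.72 and -1.73, by 1.32 ± 0.10, while Pkm, the non-hepatic pyruvate kinase, and Pgam1, a phosphoglycerate mutase, rose by 0.67 ± 0.10 and 0.72 ± 0.11. Of 26 genes of cholesterol synthesis and uptake 7 were higher and 3 lower (median 0.12). Sc5d, a late sterol desaturase, rose from 2.78, 3.04, 2.92 and 3.06 to 3.88, 3.84, 3.84 and 4.02, by 0.94 ± 0.10, and Acat2, the cytosolic thiolase, by 0.84 ± 0.11. Stard4, a sterol carrier, fell by 0.91 ± 0.16.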
